A study of Mus musculus with 7 samples.

Results

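Imprinted genes were followed across ventricles of mouse embryos at E11.5 that lacked the transcription factor Hand1 in the myocardium, and across their controls. Of 40 imprinted genes listed by name, 35 were found by symbol among the 13701 genes of the count table, and all 35 passed the filter on low counts that left 13695 genes for testing. Snrpn, Snurf, Phlda2, Rtl1 and Rasgrf1 were not analysed here. By the allele they are known to be expressed from in mouse, 15 of the 35 were classed as maternally expressed, 19 as paternally expressed, and Gnas as depending on the promoter used. Of these, 9 maternally and 16 paternally expressed genes are imprinted in many tissues, while the others are imprinted in some tissues or stages only.

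The Hand1 knockout group held 2 libraries of genotype Nkx Cre +/-; H1flox/flox, which carry a Cre recombinase in the Nkx2.5 locus, active in cardiac progenitors and myocardium, together with floxed Hand1. The flox control group held 2 libraries of genotype Nkx Cre wt; H1flox/flox, with floxed Hand1 and no Cre. The Cre control group held 3 libraries of genotype Nkx Cre +/-; wt, with Cre and wild-type Hand1. All embryos were of mixed background, all ventricles were untreated, and polyadenylated RNA was sequenced. Cells outside the Nkx2.5 lineage keep Hand1, and the Cre allele is shared by the knockout and the Cre controls. Nothing in the labels says whether libraries of a group were single embryos or pools, or littermates, so p-values measure the spread between these libraries, which may be technical.

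Imprinted genes are expressed from 1 parental allele, marked in the germ line by DNA methylation at imprinting control regions. Many sit in shared domains in which a noncoding RNA from one chromosome goes with silence of protein-coding neighbours on it. As a class they are known for setting fetal and placental growth: paternally expressed genes such as Igf2 often promote growth, and maternally expressed genes such as Igf2r and Grb10 often restrain it. Total counts cannot tell the alleles apart, so every value below is the sum over both alleles, and a change of imprint could not be read from it. In whole ventricles, fewer cells of a type and less RNA per cell cannot be told apart either.

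Depth was 18975283 to 28346700 counts per library. Hand1, the targeted gene, stood at 1.29 and 1.14 CPM (counts relative to library size, scaled by trimmed mean of M-values) in knockout replicates 1 and 2, against 34.1 to 94.7 CPM in the 5 controls. The second knockout library stood apart from all others: 40.6% of all genes in it lay above, and 42.3% below, every control, against 24.7% and 27.6% in the first. Its difference from the controls followed transcript length (summed exons), with a median log2 difference of 1.15 over the 1369 shortest genes of the table and -0.67 over the 1369 longest, against 0.05 and -0.30 in the first knockout library. Cardiomyocyte markers, 13 of 13 present, summed to 32350 and 21460 CPM in the knockout libraries, against 24880 to 35140 CPM in the controls. Endothelial and endocardial markers, 10 of 10 present, summed to 1219 and 672.2 CPM against 1315 to 1619 CPM. Cushion mesenchyme markers, 8 of 8 present, summed to 1492 and 429.8 CPM against 1364 to 1918 CPM. Erythroid markers, 8 of 12 present, summed to 3029 and 14220 CPM against 3751 to 8236 CPM. Atrial markers, 6 of 6 present, summed to 4585 and 8286 CPM against 3425 to 4454 CPM. Single atrial markers went both ways, with a median edgeR log2 change of -0.03 against the mean of both controls. The changes were 0.96 for Myl7, 0.50 for Myl4 and 0.14 for Bmp10, but -0.20 for Nr2f2, -0.88 for Sln and -0.89 for Nr2f1. Only 1 of 8 liver and endoderm markers was in the table. Epicardial markers, 8 of 8 present, summed to 425.5 and 337.5 CPM against 334.4 to 397.6 CPM, and neural and neural crest markers, 7 of 9 present, to 27.5 and 34.0 CPM against 27.0 to 45.4 CPM. The part of transcript length or cell makeup in any result below was not tested. Values are therefore given per library, with the first and the second knockout library in that order.

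The 35 imprinted genes together took 3.016% and 2.986% of all counts in the knockout libraries, against 3.21% and 3.271% in flox controls and 3.213%, 3.259% and 3.193% in Cre controls. Both knockout libraries lay below all 5 controls in this share, but H19 alone made up a large part of it. H19 took 0.833% and 1.663% of all counts in the knockout libraries, against 0.830% to 1.196% in the controls. The sum is therefore no measure of a shared fall of the 35 genes. Per kilobase of exon, H19, a maternally expressed noncoding RNA, was the highest imprinted gene. It averaged 5952 ± 3326 CPM per kilobase in knockouts and 3983 ± 552 CPM per kilobase in controls (SD, n = 2 and 5), where it ranked 5 among all genes of the table. Igf2, the fetal growth factor of the same domain, averaged 1464 ± 271 CPM per kilobase in knockouts and 1633 ± 72.4 in controls, rank 13. Mest, a paternally expressed hydrolase-family protein, averaged 1395 ± 293 CPM per kilobase in knockouts and 1558 ± 136 in controls, rank 15. Grb10 and Igf2r followed at ranks 95 and 116, and Cd81, Gnas, Plagl1, Peg3 and Commd1 at ranks 223, 301, 408, 739 and 870. Among the controls the levels per kilobase of Grb10 (459.9 ± 70.5) and Igf2r (409.5 ± 114) overlapped within their spread. The lowest levels per kilobase in controls were those of Magel2 (0.353 ± 0.143), Slc22a18 (0.532 ± 0.192) and Nap1l5 (0.578 ± 0.11), also within each other's spread.

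**Figure D1:**
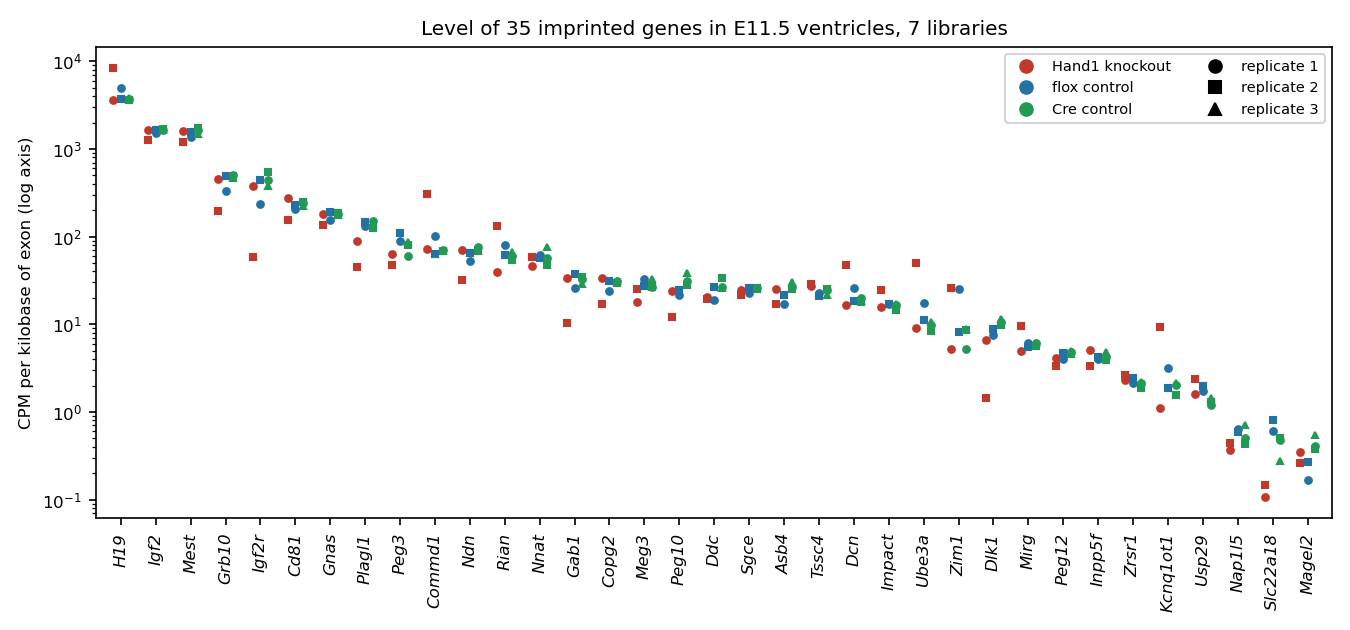
Expression of the 35 imprinted genes in CPM per kilobase of exon (log axis), 1 point per library, by genotype group. Control means span from 3983 for H19 down to 0.353 for Magel2, and knockout means from 5952 for H19 down to 0.128 for Slc22a18.

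No imprinted gene passed edgeR's quasi-likelihood test at an adjusted p below 0.05 in any comparison. The count was 0 of 35 for the knockout against flox controls (0.0146% of all genes passed), against Cre controls (0.0146%) and against the mean of both control groups (0.0219%), and 0 of 35 for Cre against flox controls (0.0%). At an unadjusted p below 0.05, edgeR's numbers were 3 against flox controls (8.36% of all genes), 6 against Cre controls (15.4%), 4 against the mean of both (15.9%) and 1 between the controls (3.13%). DESeq2, as an alternative test, called 1 gene lower against flox controls (Slc22a18; 2.21% of all genes called), 0 against Cre controls (4.05%) and 2 lower against the mean of both controls (Plagl1 and Slc22a18; 4.4%). Between the controls DESeq2 called 0 (0.533%). At an unadjusted p below 0.05, its numbers were 4 against flox controls (13.1% of all genes), 7 against Cre controls (23.1%), 7 against the mean of both (22.6%) and 1 between the controls (3.99%). These shares are near or below those of the whole table.

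The calls turned on which knockout library was kept. Without the second, edgeR called 0 of 35 against flox controls (0.336% of all genes), Cre controls (0.46%) and the mean of both (0.343%). DESeq2 then called 4 genes lower against flox controls (Kcnq1ot1, Meg3, Plagl1 and Rian; 7.13%), 3 against Cre controls (Dlk1, Meg3 and Plagl1; 3.35%) and 4 against the mean of both (as against flox controls; 4.23%). Without the first, edgeR called 18 (55.1%), 21 (64.3%) and 21 (62.5%), and DESeq2 18 (52.6%), 24 (61.3%) and 20 (59.9%). Each such fit takes the lone knockout library to vary like the other groups, and without the first library most genes of the table passed. With offsets for transcript length and GC content, DESeq2 called 1 against flox controls (Slc22a18; 2.45%), 2 against Cre controls (Dlk1 and Usp29; 5.25%) and 3 against the mean of both (Plagl1, Slc22a18 and Usp29; 5.28%).

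Without a test, 5 of the 35 genes had both knockout libraries outside the range of all 5 controls on the same side, where 19.7% of all genes did. Plagl1, Slc22a18, Dlk1 and Meg3 lay below in both, against a background of 11.6%, and Tssc4 lay above in both, against 8.19%. The count is no larger than the background share. With length and GC correction it was 10 of 35, where 19.9% of all genes did so, and without scaling factors 6 of 35, against 19.6%; Plagl1, Slc22a18 and Dlk1 were among them each time. Both knockout libraries and flox control replicate 2 carry identifiers with the same first part, whose meaning the labels do not give. No Cre control carries it. In every comparison of knockouts with Cre controls, the authors' included, genotype and this first part therefore cannot be told apart. With that first part as a block, in which the knockouts are set against flox control replicate 2, edgeR called 0 of 35 (0.0% of all genes) and DESeq2 0 of 35 (0.0438%) against flox controls, with 1 and 2 genes at an unadjusted p below 0.05 (1.80% and 3.22% of all genes). By the count above, the 5 genes lay on the same side of that control as of the others. These genes are described first, with the promoter sequences of the 4 that lay below. The stretches run from 250 bases before to 50 after the transcription start that is nearest to the 5′ end of the gene in the table (RefSeq, GRCm38.p6, plus strand, 5′ to 3′), in lower case with each CpG dinucleotide, the methylated unit of imprinting marks, in capitals.

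Plagl1 promoter, chr10:13090582-13090881: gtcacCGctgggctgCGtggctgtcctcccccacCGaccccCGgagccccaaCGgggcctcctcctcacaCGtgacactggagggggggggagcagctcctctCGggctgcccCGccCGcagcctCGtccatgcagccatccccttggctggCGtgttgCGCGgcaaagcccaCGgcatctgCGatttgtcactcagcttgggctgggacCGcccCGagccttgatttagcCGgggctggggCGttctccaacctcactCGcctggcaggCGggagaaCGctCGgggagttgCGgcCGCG
Slc22a18 promoter, chr7:143473539-143473838: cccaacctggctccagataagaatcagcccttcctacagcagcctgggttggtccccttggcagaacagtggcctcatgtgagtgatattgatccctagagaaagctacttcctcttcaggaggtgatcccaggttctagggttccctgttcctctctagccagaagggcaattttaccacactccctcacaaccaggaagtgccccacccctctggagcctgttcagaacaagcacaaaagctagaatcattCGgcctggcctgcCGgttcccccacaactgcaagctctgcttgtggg
Dlk1 promoter, chr12:109452573-109452872: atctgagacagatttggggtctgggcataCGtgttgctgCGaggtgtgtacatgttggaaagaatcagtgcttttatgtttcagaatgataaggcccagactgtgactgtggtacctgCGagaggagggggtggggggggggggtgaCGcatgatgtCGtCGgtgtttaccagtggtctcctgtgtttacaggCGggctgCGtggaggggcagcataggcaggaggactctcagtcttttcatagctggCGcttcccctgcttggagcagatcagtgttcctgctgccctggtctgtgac
Meg3 promoter, chr12:109540746-109541045: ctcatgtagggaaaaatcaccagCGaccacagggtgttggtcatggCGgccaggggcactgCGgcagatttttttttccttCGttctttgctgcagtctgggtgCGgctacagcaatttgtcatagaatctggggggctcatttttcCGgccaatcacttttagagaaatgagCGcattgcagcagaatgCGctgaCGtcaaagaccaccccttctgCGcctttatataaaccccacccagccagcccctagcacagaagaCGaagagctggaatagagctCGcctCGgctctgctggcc

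The sequences differ widely in CpG content. Plagl1 holds 26 CpG, Meg3 13, Dlk1 9 and Slc22a18 2 in 300 bases, where the median was 14.5 over the 30 imprinted genes with a matched promoter and 21.0 over 10375 genes of the table. The hexamer CATCTG, an E-box form read by Hand and E-protein dimers, was searched on both strands (CATCTG or CAGATG). It was found in 3 of the 30 promoters (10.0%), those of Plagl1, Rian and Kcnq1ot1, against 11.3% of the promoters of table genes.

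**Figure D2:**
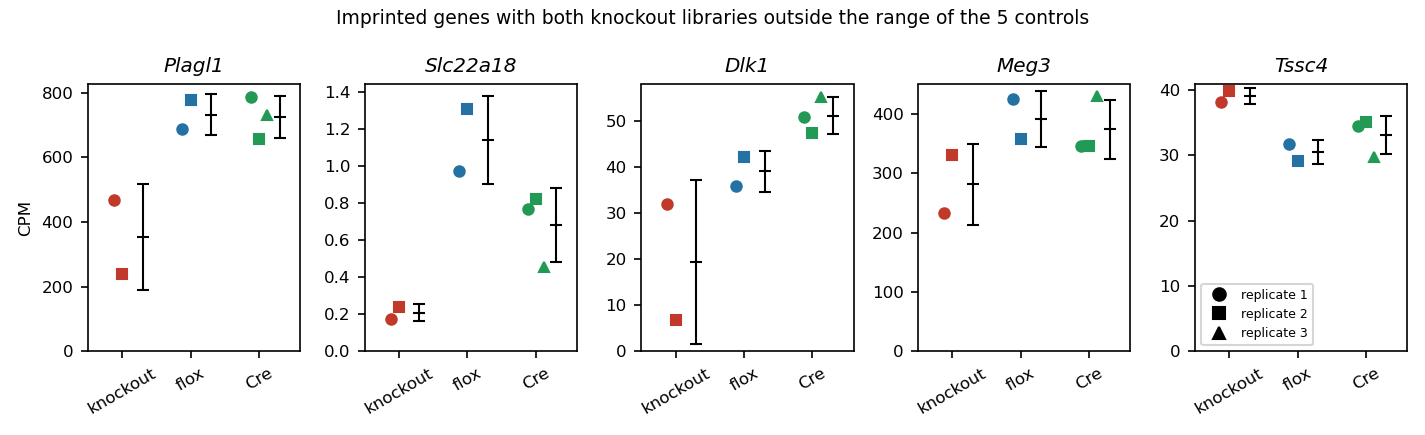
CPM in each of the 7 libraries for the 5 imprinted genes with both knockout libraries outside the range of all controls, 1 panel per gene, groups on the horizontal axis, with the group mean and SD as a bar beside the points. Plagl1, Slc22a18, Dlk1 and Meg3 sit below all 5 controls in both knockout libraries, and Tssc4 sits above.

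Plagl1 encodes a paternally expressed zinc-finger transcription factor that restrains cell growth and is transcribed in the developing mouse heart (chr10:13090788-13131695 on the plus strand, mm10; all gene positions are those of the deposited table). It stood at 469.5 and 239 CPM in the knockout libraries, against 689 and 777 CPM in flox controls and 786, 656 and 730.4 CPM in Cre controls. Both knockouts lay below every control, and the second lay lowest. The knockout mean was 48.7% of the control mean. The log2 change against the mean of both control groups was -1.04 ± 0.32 (SE) by edgeR with an adjusted p of 0.31, and -1.01 ± 0.31 by DESeq2 with an adjusted p of 0.036. Against each group alone edgeR gave -1.05 ± 0.36 for flox controls (adjusted p = 0.541) and -1.03 ± 0.34 for Cre controls (adjusted p = 0.324). With the second knockout library left out, the change was smaller, -0.61 ± 0.16 in DESeq2 (adjusted p = 0.00948), and without the first it was -1.58 (adjusted p = 2.88e-19). Without any 1 of the 5 controls, DESeq2's adjusted p was 0.16 to 0.356 and the call was lost. The authors' deposited table of the knockout against Cre controls gives Plagl1 a log2 fold change of -1.05 with a false discovery rate of 0.0472. Among the imprinted genes, only Plagl1, Slc22a18, Dlk1, Ube3a and Commd1 had a rate below 0.05 there. The share of all genes below that rate was not computed, so these genes cannot be set against a background.

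Slc22a18, a maternally expressed transporter of the organic cation transporter family in the Kcnq1ot1 domain (chr7:143473755-143499332), was the least abundant of the 5. It had 5 and 4 counts in the knockout libraries, against 25 and 35 in flox controls and 20, 23 and 12 in Cre controls. In CPM these are 0.174 and 0.241 in knockouts, 0.975 and 1.31 in flox controls and 0.768, 0.824 and 0.453 in Cre controls. Every control library lay above both knockouts, and all Cre controls lay below both flox controls. The log2 change against the mean of both controls was -2.10 ± 0.44 by edgeR (adjusted p = 0.225) and -2.10 ± 0.63 by DESeq2 (adjusted p = 0.0274). Against flox controls it was -2.47 ± 0.69 by DESeq2 (adjusted p = 0.0237), and against Cre controls -1.73 ± 0.67 (adjusted p = 0.107). The call against flox controls was lost with the identifier's first part as a block (-2.66, adjusted p = 1.0). The call against the mean of both controls was lost without any 1 of the 7 libraries, with DESeq2 adjusted p-values of 0.092 to 0.301. With so few counts in the knockouts, counting error is a large part of the uncertainty. The authors' deposited table gives -1.75 against Cre controls with a false discovery rate of 0.049.

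The Dlk1-Meg3 domain on chromosome 12 holds the paternally expressed Dlk1, a membrane protein with epidermal growth factor repeats that is related to Notch ligands. It also holds the maternally expressed noncoding RNAs Meg3, Rian (host of small nucleolar RNAs) and Mirg (host of microRNAs). All 4 lay below every control in the first knockout library. In the second, Dlk1 and Meg3 lay below every control while Rian and Mirg lay above. Over all genes, 27.6% lay below every control in the first library.

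Dlk1 (chr12:109452823-109463336) stood at 32 and 6.87 CPM in the knockout libraries, against 35.9 and 42.1 CPM in flox controls and 50.9, 47.3 and 55.2 CPM in Cre controls. Both knockouts lay below all controls, the second far below, and the Cre controls lay above the flox controls. The log2 change by edgeR was -1.39 ± 0.59 against Cre controls (adjusted p = 0.328) and -1.0 ± 0.63 against flox controls (adjusted p = 0.614). Against Cre controls it was -2.90 ± 0.19 without the first knockout library (adjusted p = 0.000272) and -0.65 ± 0.16 without the second (adjusted p = 0.135), and against flox controls -2.51 (adjusted p = 0.000922) and -0.27 (adjusted p = 0.34). With offsets for transcript length and GC content, DESeq2 called Dlk1 lower against Cre controls (-1.09 ± 0.35, adjusted p = 0.0383). The authors' deposited table gives -1.40 against Cre controls with a false discovery rate of 0.0214.

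Meg3 (chr12:109540996-109571729) stood at 232 and 329.8 CPM in the knockout libraries, against 424 and 358 CPM in flox controls and 345, 346 and 431 CPM in Cre controls. Here the first knockout library was the lowest, and the second lay just under the lowest control. The log2 change against the mean of both controls was -0.44 ± 0.24 by edgeR (adjusted p = 0.373), and it turned to 0.37 ± 0.31 (adjusted p = 0.54) with offsets for transcript length and GC content. Without the second knockout library DESeq2 called Meg3 lower against the mean of both controls (-0.70 ± 0.19, adjusted p = 0.00947), and without the first it gave -0.19 ± 0.19 (adjusted p = 0.392).

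Rian stood at 140 and 471 CPM in the knockout libraries, against 284 and 219 CPM in flox controls and 213, 196 and 239 CPM in Cre controls, so that the knockouts lay on opposite sides of the controls. Mirg did likewise, with 6.49 and 12.3 CPM in the knockouts, against 7.92 and 7.07 CPM in flox controls and 7.84, 7.34 and 7.96 CPM in Cre controls. The log2 ratio of Meg3 to Dlk1 was 2.86 and 5.59 in the knockouts, against 3.56 and 3.09 in flox controls and 2.76, 2.87 and 2.96 in Cre controls. The first knockout library lay within the controls and the second above them all. The knockout mean was 4.22 ± 1.93 and the control mean 3.05 ± 0.31 (SD, n = 2 and 5), a difference of 1.17 with an exact two-sided permutation p of 0.238, where the design allows no p below 0.0476.

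Tssc4 (chr7:143069368-143071087), maternally expressed in some tissues and coding for a splicing-related protein, was the 1 gene above the controls in both knockouts. It stood at 38.2 and 39.9 CPM in the knockout libraries, against 31.8 and 29.2 CPM in flox controls and 34.5, 35.2 and 29.8 CPM in Cre controls. The margin was small: the log2 change against the mean of both controls was 0.30 ± 0.14 by edgeR (adjusted p = 0.338). Without scaling factors Tssc4 no longer lay above all controls.

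In the H19-Igf2 domain of chromosome 7, H19 (chr7:142575530-142578146) and Igf2 (chr7:142650768-142661035) are expressed from opposite alleles under a shared control region. H19 stood at 8238 and 19000 CPM in the knockout libraries, against 11350 and 8590 CPM in flox controls and 8451, 8366 and 8805 CPM in Cre controls. The first knockout library was just below the controls and the second more than all of them, with flox control replicate 1 the highest control. Igf2 stood at 7012 and 5390 CPM in the knockout libraries, against 6413 and 7034 CPM in flox controls and 7019, 7229 and 6886 CPM in Cre controls. The first knockout lay within the controls and the second below. Igf2 was the steadiest imprinted gene among the controls, with a coefficient of variation of 4.44%.

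The log2 ratio of H19 to Igf2 was 0.23 and 1.82 in the knockouts, against 0.82 and 0.29 in flox controls and 0.27, 0.21 and 0.35 in Cre controls. The knockout mean was 1.03 ± 1.12 and the control mean 0.39 ± 0.25 (SD, n = 2 and 5), a difference of 0.64 with an exact two-sided permutation p of 0.238. Between the controls, the ratio was 0.28 ± 0.07 in Cre and 0.56 ± 0.38 in flox libraries (SD, n = 3 and 2), with an exact permutation p of 0.2 where 0.1 is the smallest possible.

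Igf2r, the maternally expressed receptor that clears IGF2 from the cell surface, stood at 3363 and 524 CPM in the knockout libraries, against 2126 and 3922 CPM in flox controls and 3908, 4930 and 3397 CPM in Cre controls. Only the second knockout lay outside, below all controls. Grb10, a maternally expressed adaptor that dampens insulin and IGF signalling, stood at 2357 and 1011 CPM in the knockout libraries, against 1731 and 2547 CPM in flox controls and 2583, 2569 and 2431 CPM in Cre controls. Again the first knockout lay within the controls and the second below. Its neighbour Ddc, the aromatic amino acid decarboxylase, paternally expressed in some tissues, stood at 43.2 and 40.3 CPM in the knockout libraries, against 39.3 and 56.3 CPM in flox controls and 56.2, 70.02 and 53.5 CPM in Cre controls. The lowest of these 7 values was a flox control.

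In the Peg3 domain, Peg3, a paternally expressed zinc-finger protein, stood at 422 and 317 CPM in the knockout libraries, against 596 and 733 CPM in flox controls and 398, 526 and 575 CPM in Cre controls. The first knockout lay between Cre control values and the second lay below all controls. Usp29, expressed from the same paternal promoter region and coding for a ubiquitin protease family member, stood at 12.4 and 18.4 CPM in the knockout libraries, against 13.4 and 15.3 CPM in flox controls and 9.18, 10.03 and 11.1 CPM in Cre controls. Both knockouts lay above all Cre controls, and the first below both flox controls. With offsets for length and GC content, DESeq2 called it higher against Cre controls (log2 change 0.75 ± 0.21, adjusted p = 0.0117), where edgeR did not (0.72 ± 0.17, adjusted p = 0.163). Maternally expressed Zim1, a zinc-finger gene, stood at 18.3 and 90.6 CPM in the knockout libraries and was the most variable imprinted gene among the controls, at 87.4 and 28.8 CPM in flox controls and 18.4, 30.3 and 31.2 CPM in Cre controls, a coefficient of variation of 69.96%. The antisense gene Peg3os overlaps 13.1% of the exon bases of Peg3, and without stated use of strand its reads cannot be told from those of Peg3.

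In the Mest domain, Mest stood at 4449 and 3298 CPM in the knockout libraries, against 3842 and 4323 CPM in flox controls and 4563, 4800 and 4098 CPM in Cre controls. Copg2, a coat protein subunit on the opposite strand, stood at 134 and 67.9 CPM in the knockout libraries, against 95.4 and 126 CPM in flox controls and 126, 119 and 124 CPM in Cre controls. Both genes had the second knockout below all controls, and for Copg2 the first lay above them all. The pair shares 913 exon bases, 32.9% of Mest and 22.7% of Copg2, so the Copg2 level is uncertain where reads of the more abundant Mest fall there.

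In the Peg10 domain, Peg10, a retrotransposon-derived gene needed for the placenta, stood at 161 and 81.2 CPM in the knockout libraries, against 143 and 164 CPM in flox controls and 209.9, 189 and 259 CPM in Cre controls. Sgce, a sarcoglycan sharing its promoter region, stood at 46.7 and 40.7 CPM in the knockout libraries, against 43 and 48.6 CPM in flox controls and 49.1, 48.1 and 47.2 CPM in Cre controls. Of both, the second knockout lay below all controls and the first within them. Maternally expressed Asb4, a ubiquitin ligase subunit, lay within the control range in both knockouts (82.8 and 56.1 CPM, against 55.4 to 100.1 CPM in controls).

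**Figure D3:**
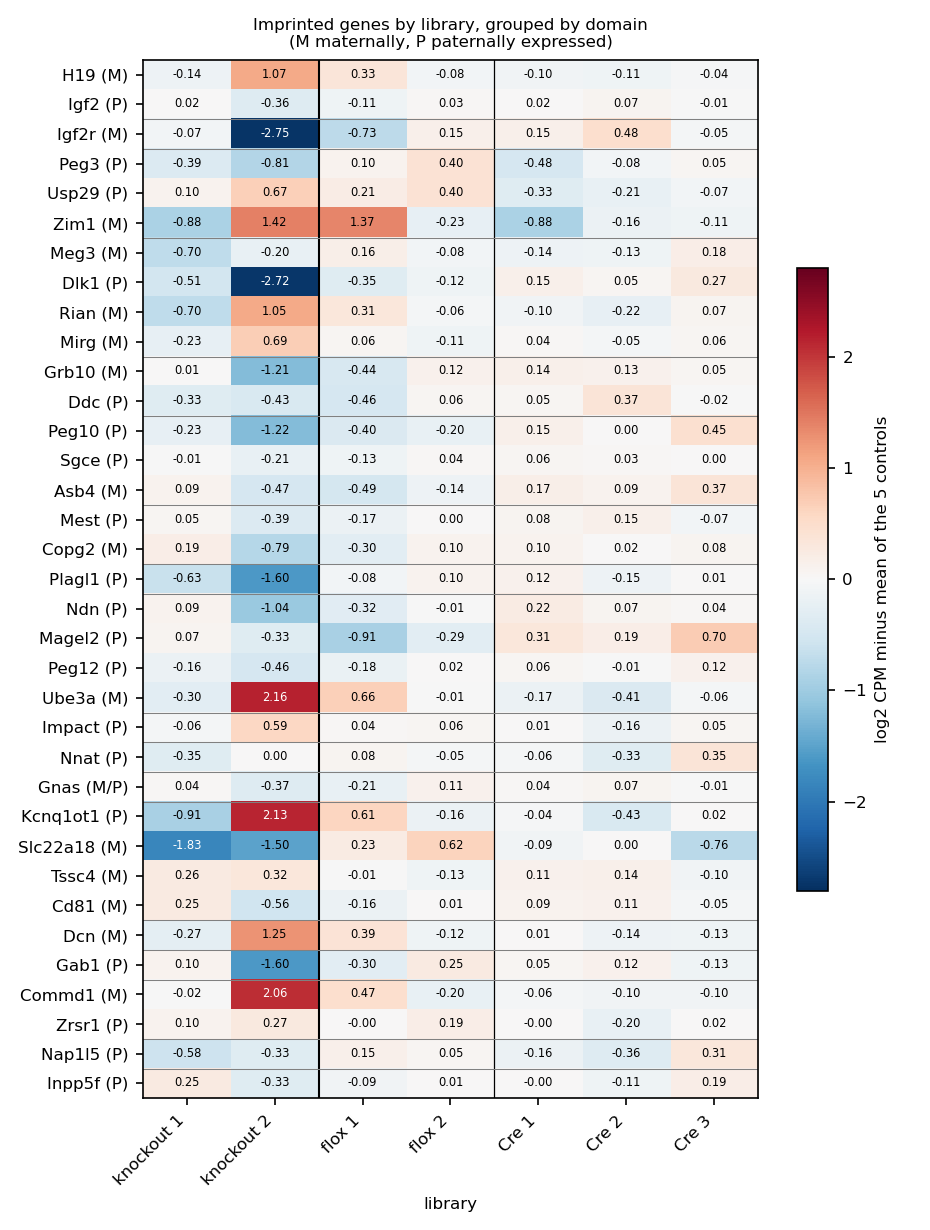
Difference of each library from the mean of the 5 controls for all 35 imprinted genes, on the log2 CPM scale, genes in rows by domain and knockout libraries on the left. The second knockout library holds the strongest colours in both directions, and flox control replicate 1 shows the same direction more faintly for many genes.

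In the Kcnq1ot1 domain, the paternally expressed noncoding RNA Kcnq1ot1 stood at 93 and 768 CPM in the knockout libraries, against 267 and 157 CPM in flox controls and 170.4, 130.4 and 177 CPM in Cre controls. The knockouts lay on opposite sides of all controls. Without the second knockout library DESeq2 called it lower against the mean of both controls (log2 change -0.96 ± 0.26, adjusted p = 0.0126), while with both libraries edgeR gave 1.23 ± 0.70 (adjusted p = 0.388). Cd81, a tetraspanin, also lay on opposite sides, with 414 and 235 CPM in the knockouts, against 312 and 349.9 CPM in flox controls and 370.5, 377 and 336 CPM in Cre controls.

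In the Snrpn domain, the MAGE-family gene Ndn stood at 116 and 53.1 CPM in the knockout libraries against 87.3 to 127 CPM in controls, and Peg12, a Frat-family gene, at 10.9 and 8.79 CPM against 10.7 to 13.2 CPM. For both, only the second knockout lay below. Magel2, another MAGE-family gene, lay within the controls in both knockouts (1.61 and 1.2 CPM, against 0.78 to 2.53 CPM). Ube3a, the ubiquitin ligase expressed from the maternal allele in neurons, stood at 55.8 and 307 CPM in the knockout libraries, against 108 and 67.8 CPM in flox controls and 60.8, 51.5 and 65.6 CPM in Cre controls. The authors' deposited table gives Ube3a a log2 fold change of 1.58 against Cre controls with a false discovery rate of 0.0221, yet the first knockout library lay within the Cre controls. Commd1, a copper-handling protein that hosts the paternally expressed Zrsr1 in an intron, was likewise far higher in the second knockout alone, with 59.4 and 253 CPM in the knockouts, against 83.4 and 52.5 CPM in flox controls and 57.8, 56.1 and 56.4 CPM in Cre controls. Its log2 fold change in the authors' deposited table is 1.43 with a false discovery rate of 0.0133. Commd1 has 818 exon bases. Its log2 difference from the control mean was -0.02 and 2.06 in the knockouts, and 0.02 and 0.26 with length and GC correction. Zrsr1, a splicing factor relative, stood at 10.4 and 11.7 CPM in the knockouts, against 9.67 and 11.1 CPM in flox controls and 9.68, 8.45 and 9.81 CPM in Cre controls.

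Gnas, the stimulatory G protein subunit locus, stood at 1478 and 1118 CPM in the knockout libraries, against 1249 and 1553 CPM in flox controls and 1483, 1512 and 1435 CPM in Cre controls, with only the second knockout outside. Of the remaining genes, the second knockout was above all controls for Impact, a regulator of translation under stress (84.6 CPM, against 50.04 to 58.5 CPM) and for the matrix proteoglycan gene Dcn (99.2 against 37.6 to 54.3 CPM). It was below them for the docking protein gene Gab1 (51.9 against 129 to 188 CPM) and the phosphatase gene Inpp5f (16 against 18.6 to 22.8 CPM). The first knockout was below all controls for Dcn (34.5 CPM), the small membrane protein gene Nnat (62.1 CPM, against 62.9 to 101 CPM) and Nap1l5 (0.698 CPM, against 0.824 to 1.36 CPM), and above them for Inpp5f (23.8 CPM).

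In all, the first knockout library lay above every control for 4 of the 35 genes and below for 12, where 24.7% and 27.6% of all genes did. The second lay above for 12 and below for 18, where 40.6% and 42.3% did. Of the 30 genes outside in the second, the nearest control was flox control replicate 1 for 20 (66.7%), as it was for 65.9% of the 11362 such genes in the table. Among the imprinted genes, the median log2 difference of the second library from controls was -0.11 over the 12 shortest and -1.01 over the 12 longest. In the first library these medians were -0.18 and -0.26. The longest thus lay lower in the second library, but the shortest were not raised as in the whole table. Among the 12 longest, Kcnq1ot1 (2.13), Ube3a (2.16) and Usp29 (0.67) lay above the control mean in the second library, and the rest lay below it. Correction for length and GC content moved single genes of the second library in different ways. The log2 difference went from 1.05 to -0.53 for Rian and from 2.13 to 0.68 for Kcnq1ot1. For other genes it grew, from -0.21 to -1.97 for Sgce and from -1.04 to -1.99 for Ndn. How far length accounts for the values of single genes was not tested.

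**Figure D4:**
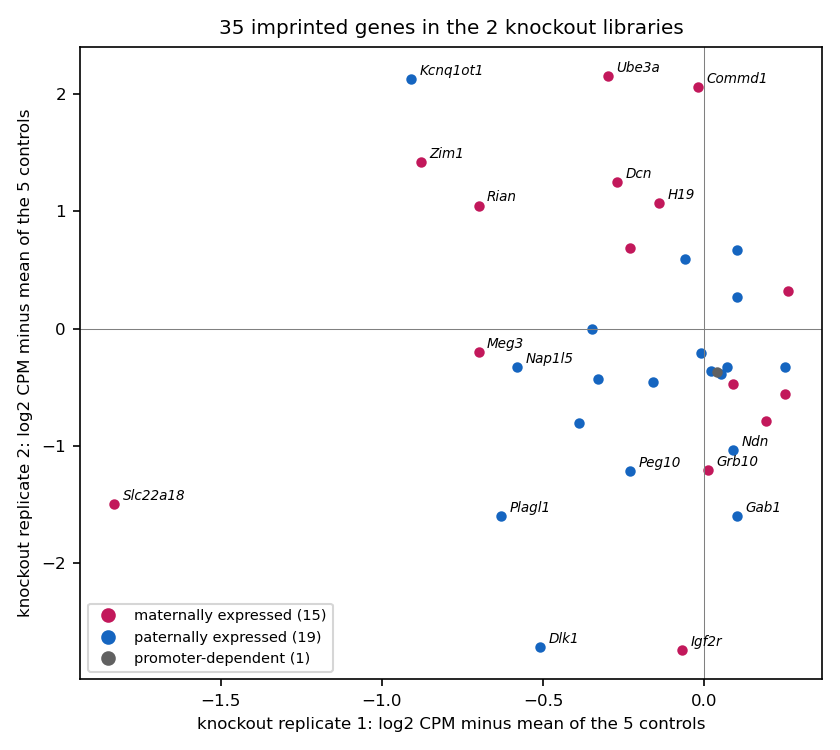
Log2 difference from the mean of the 5 controls in knockout replicate 1 (horizontal) against knockout replicate 2 (vertical), 1 point per imprinted gene, coloured by the expressed allele. Plagl1, Slc22a18, Dlk1 and Meg3 lie at negative values on both axes, while Kcnq1ot1, Rian and H19 lie at negative values in the first library and positive ones in the second.

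Split by the expressed allele, the 15 maternally expressed genes had a median log2 change of 0.30 against the mean of both controls (8 positive, 7 negative). The 19 paternally expressed genes had -0.18 (4 positive, 15 negative), all 35 had -0.14, and the median of all genes was 0.01. Against flox controls the medians were 0.14 for maternally and -0.18 for paternally expressed genes, and against Cre controls 0.24 and -0.36. These comparisons share the knockout libraries. The maternal median changed sign with each of 3 settings: it was -0.15 without the second knockout library, -0.11 over the 9 broadly imprinted genes, and -0.16 with offsets for length and GC content. The paternal median was -0.06, -0.17 and -0.23 under the same settings. The median of the maternally expressed genes was -0.14 in the first knockout library and 0.32 in the second. That of the paternally expressed genes was -0.06 and -0.36. A split between the alleles that held in both knockout libraries was thus not seen.

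Between the control groups, 5 genes had all 3 Cre controls above both flox controls (Dlk1, Peg10, Asb4, Ndn and Magel2), where 17.2% of all genes did, and 4 had them below (Peg3, Usp29, Ube3a and Slc22a18), where 17.0% did. None of these passed edgeR or DESeq2 at an adjusted p below 0.05. With all 7 libraries in the fit, Magel2 was the 1 gene with an unadjusted p below 0.05 (log2 change 1.03 ± 0.33 for Cre minus flox, adjusted p = 0.999 by edgeR). With the 5 control libraries alone edgeR had 7 such genes (15.7% of all genes), as it had without the first (15.6%) or the second (15.7%) knockout library, and 0 passed after adjustment. The medians between the controls were -0.07 for maternally and 0.07 for paternally expressed genes.

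Of 41 further imprinted genes, 33 were in the table. EdgeR called 0 of them in each comparison, with 7 at an unadjusted p below 0.05 against the mean of both controls (15.9% of all genes). DESeq2 called 1 lower against flox controls (2.21%) and 2 lower against the mean of both controls (4.4%). These were Sfmbt2 and Klf14, named after their values were seen. Sfmbt2, a paternally expressed Polycomb-group gene, stood at 2.97 and 2.89 CPM in knockouts, against 6.40 and 5.13 CPM in flox controls and 4.99, 4.66 and 5.32 CPM in Cre controls, and its log2 change against the mean of both controls was -0.84 ± 0.24 (DESeq2, adjusted p = 0.0146; edgeR, adjusted p = 0.225). Klf14, a maternally expressed zinc-finger gene near Mest, stood at 2.34 and 1.14 CPM in knockouts, against 4.25 and 3.82 CPM in flox controls and 3.53, 4.84 and 3.92 CPM in Cre controls. Of 23 genes that maintain imprints or methylate DNA, 21 were in the table and both tools called 0 in each comparison, with 1 by edgeR (15.9% of all genes) and 3 by DESeq2 (22.6%) at an unadjusted p below 0.05 against the mean of both controls. Of 19 further genes of the insulin and IGF axis, 17 were in the table. EdgeR called 0, with 2 at an unadjusted p below 0.05 against the mean of both controls (15.9% of all genes). DESeq2 called Insr, the insulin receptor, lower against the mean of both controls, where it called 4.4% of all genes (log2 change -0.42 ± 0.13, adjusted p = 0.034). Insr, also named after its values were seen, stood at 98.6 and 101.7 CPM in knockouts, against 147.6 and 140.9 CPM in flox controls and 118.8, 134.0 and 134.2 CPM in Cre controls. The edgeR median log2 changes against the mean of both controls were -0.03 for the further imprinted genes, -0.11 for the maintenance genes and -0.33 for the IGF axis. By DESeq2 these medians were 0.0, -0.08 and -0.31 with all libraries, and -0.07, 0.01 and 0.17 without the second knockout library.

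These calls also turned on the libraries kept. The DESeq2 calls of Sfmbt2, Klf14 and Insr against the mean of both controls held without the first knockout library, and were lost without the second or without any 1 control, with adjusted p-values of 0.125 to 0.274 for Sfmbt2, 0.197 to 0.298 for Klf14 and 0.0749 to 0.557 for Insr. Without the second knockout library, DESeq2 called 4 of the 33 further imprinted genes against the mean of both controls (Airn, Calcr, Dhcr7 and Zc3h12c), 1 of the 21 maintenance genes (Uhrf1) and 3 of the 17 genes of the IGF axis (Igf1, Igfbp2 and Igfbp3), where it called 4.23% of all genes. Against flox controls it then called 5, 3 (Cbx5, Tet2 and Uhrf1) and 5 (7.13% of all genes), and against Cre controls 1, 0 and 2 (3.35%), genes named after their values were seen.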

How the data were processed

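Polyadenylated RNA from E11.5 ventricles was sequenced in 7 libraries. Listed in the submitters' processing notes are featureCounts, Subread 1.5.0, edgeR, STAR 2.4.2a and the mm10 build; strand settings and annotation are not given in the sources used here. Raw counts per gene were deposited by the authors as 1 table, with coordinates and exon length per the file headers. It also holds the authors' log2 fold change, p-value and false discovery rate for knockout against Cre controls. The table gives 20 gene names as dates and 46 with added notes, which were read by their coordinates or first word.

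Groups came from the genotype labels. All counts were fitted in edgeR 4.0.16 (quasi-likelihood, TMM, filterByExpr, robust, R 4.3.3) with 1 mean per group. P-values were adjusted by Benjamini-Hochberg over 13695 genes, threshold 0.05. SEs were the log2 change over the square root of F. Log2 CPM used a prior count of 2. Ratios were compared by exact two-sided permutation. Totals of 18975283 to 28346700 counts leave genes below 1 CPM with few counts and more counting error. Alternatives were DESeq2 1.42.0, limma 3.58.1 (voom), other scalings and filters, compared groups alone, an embryo sex term, smooth offsets for length and GC content (mgcv 1.9.3; GC found for 96.3% of genes), leaving out each library, and, added after seeing the data, the first part of the library identifier as a block. Embryo sex is not in the labels and was inferred per library from counts of Y-linked genes against Xist. The code was tested on simulated data.

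The imprinted genes, their expressed alleles, the other lists and the comparisons were chosen with earlier results of these data known. Values per library were given for genes called by edgeR or DESeq2, genes outside all controls in both knockouts, the 10 highest per kilobase, and domain pairs.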

Additional observations from a re-analysis of the deposited data

How the results depend on the processing

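The counts of imprinted genes called depended on the tool and on the knockout libraries. EdgeR's 0 in each comparison stayed 0 with other scalings, filters, voom, a term for embryo sex inferred from the counts, or length and GC offsets. It also stayed 0 with compared groups alone, which was not run for the mean of both controls, where all 3 groups are compared. DESeq2 called 1 against flox controls, 0 against Cre controls and 2 against the mean of both, and with length and GC offsets 1, 2 and 3. Leaving out 1 library gave 0 to 18 calls against flox controls, 0 to 24 against Cre controls and 0 to 21 against the mean of both. Without knockout replicate 1, edgeR called 18, 21 and 21 imprinted genes, where it called 55.1%, 64.3% and 62.5% of all genes. DESeq2 then called 18, 24 and 20 (52.6%, 61.3% and 59.9% of all genes). Without knockout replicate 2, edgeR called 0 in each, and DESeq2 called 4 (7.13% of all genes), 3 (3.35%) and 4 (4.23%). Such fits hold 1 knockout library, which is taken to vary like the others. Without any 1 control, DESeq2 called 0.

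The maternal median log2 change of 0.30 moved to -0.11 over broadly imprinted genes, -0.15 without knockout replicate 2 and -0.16 with offsets. The 5 genes outside all controls in both knockouts became 10 with length and GC correction (19.9% of all genes): Usp29, Ube3a, Gnas, Tssc4 and Zrsr1 above, and Dlk1, Rian, Plagl1, Slc22a18 and Nap1l5 below. Without scaling factors, which moved the median of all genes to -0.11, there were 6 (19.6%), all below. Against the mean of both controls, offsets turned Meg3 to 0.37 in edgeR and 0.40 in DESeq2, Igf2 to 0.34 and 0.37, and Rian to -0.41 and -0.38; the cause was not tested. Without knockout replicate 2, changes of the other sign than with both were found for H19 (-0.15 in edgeR, -0.14 in DESeq2), Igf2 (0.05 in both), Mest (0.07 and 0.08), Grb10 (0.04 in both), Kcnq1ot1 (-0.96 in both), Rian (-0.72 and -0.71), Ube3a (-0.35 in both) and Commd1 (-0.05 and -0.04). This list is not complete. Zim1, Dcn and Mirg lay below the control mean of log2 CPM in knockout replicate 1 and above it in replicate 2. Copg2, Cd81, Gab1 and Ndn did the reverse. Over fits without 1 library, edgeR's highest were 2.06 for Kcnq1ot1, 1.02 for Rian and 2.02 for Commd1, and DESeq2's 2.09, 1.04 and 2.05; over both tools, H19 reached 1.07 and Ube3a 2.11, while Igf2, Mest and Grb10 went down to -0.35, -0.38 and -1.20. The knockout minus control difference in the log2 ratio ranged from -0.16 to 1.43 for H19 to Igf2 and from -0.19 to 2.54 for Meg3 to Dlk1, lowest without knockout replicate 2. Plagl1 (-1.61 to -0.61), Slc22a18 (-2.32 to -1.85) and Dlk1 (-2.70 to -0.46) kept their direction in each of these fits. The labels give no replicate numbers. With the first part of the library identifier as a replicate block, an alternative chosen after seeing the data, only the knockout against flox controls could be fitted: edgeR and DESeq2 called 0 imprinted genes, with 2 residual degrees of freedom, and the DESeq2 call of Slc22a18 was lost. Its meaning is not given, so this is no pairing by design. There are 2 knockout libraries, and they differ from each other; Slc22a18, Magel2 and Nap1l5 also rest on few counts.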
